A study of Mus musculus with 9 samples.

Results

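Genes of the motile cilium and of the ependymal cells that carry it were followed across 3 regions of the mouse forebrain. The members were all Affymetrix Mouse430_2 probe sets with a single gene symbol that starts with Cfap, Dnah, Dnai, Rsph, Tekt or Spag, or that equals Tmem212, Ccdc153, Enkur, Dynlrb2, Ak7, Fam183b, Tppp3 or Foxj1. The rule found 100 of the 45037 probe sets, which stand for 66 of the 18193 genes that have a probe set of their own. They were 44 Cfap probe sets, 14 of dynein heavy chains, 4 of dynein intermediate chains (Dnaic1 and Dnaic2), 7 of radial spoke genes, 5 of tektins, 18 of Spag genes and 8 of the genes listed singly. Each region had 3 arrays: BNST (bed nucleus of the stria terminalis), which belongs to the limbic forebrain; NAc (nucleus accumbens), which is ventral striatum; and dStr (dorsal striatum). The labels call the arrays of a region biological replicates without saying whether each came from a separate animal, so p-values measure the spread between these samples. All mice were anaesthetised with isoflurane and decapitated, and tissue was punched from chilled coronal slices; the sources used here give no strain, sex or age and do not mention pooling of animals.

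A motile cilium is a beating hair on the cell surface, built on an axoneme of microtubules. Outer and inner dynein arms drive the beat, radial spokes pass signals from the central microtubule pair to the arms, and tektins lie within the microtubule walls. The factor FOXJ1 and the RFX factors, which bind the X-box motif, switch on the genes of motile cilia. In the brain, multiciliated ependymal cells line the ventricles and move the cerebrospinal fluid, whereas neurons and astrocytes carry a single primary cilium without dynein arms. Several Spag genes have other roles, for instance in signalling scaffolds and the mitotic spindle, and some member genes are best known from sperm.

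The stretch of 160 bases before the RefSeq transcription start (build GRCm38.p6) is shown for 6 members with the largest differences of BNST over both other regions among those with a promoter entry, so that the sequence can be read beside values that moved together. Capitals mark GTTGCC, called here an arm of the X-box, on either strand (GGCAAC on the other strand). Cfap65 ranked among these members and has no entry. The sequences are, each 5′ to 3′ on the gene's strand, Tmem212 at chr3:27896369-27896528 (minus), Ccdc153 at chr9:44240517-44240676 (plus), Enkur at chr2:21205366-21205525 (minus), Fam183b at chr11:58801961-58802120 (minus), Dynlrb2 at chr8:116504855-116505014 (plus) and Cfap161 at chr7:83794840-83794999 (minus).
Tmem212: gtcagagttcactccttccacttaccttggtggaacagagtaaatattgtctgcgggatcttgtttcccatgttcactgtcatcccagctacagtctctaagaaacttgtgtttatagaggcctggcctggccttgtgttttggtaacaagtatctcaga
Ccdc153: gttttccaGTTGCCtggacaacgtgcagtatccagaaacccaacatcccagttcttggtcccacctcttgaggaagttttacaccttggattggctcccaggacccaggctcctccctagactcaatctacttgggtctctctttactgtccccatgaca
Enkur: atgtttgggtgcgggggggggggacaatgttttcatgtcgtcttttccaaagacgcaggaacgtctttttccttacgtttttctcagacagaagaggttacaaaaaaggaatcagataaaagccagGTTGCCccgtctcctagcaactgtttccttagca
Fam183b: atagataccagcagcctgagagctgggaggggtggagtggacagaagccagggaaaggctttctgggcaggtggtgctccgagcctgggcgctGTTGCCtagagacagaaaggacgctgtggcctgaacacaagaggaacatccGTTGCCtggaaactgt
Dynlrb2: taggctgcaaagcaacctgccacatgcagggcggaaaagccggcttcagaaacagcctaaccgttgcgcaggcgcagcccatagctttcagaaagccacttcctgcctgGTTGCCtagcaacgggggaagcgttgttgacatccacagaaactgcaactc
Cfap161: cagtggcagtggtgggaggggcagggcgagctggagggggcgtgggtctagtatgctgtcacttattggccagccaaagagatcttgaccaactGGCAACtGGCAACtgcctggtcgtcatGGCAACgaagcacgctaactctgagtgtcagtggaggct

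All shown promoters except that of Tmem212 held the arm. Its first base lay 34 bases before the start in Enkur, 51 in Dynlrb2 and 152 in Ccdc153, at 67 and 16 in Fam183b, and at 66, 59 and 39 in Cfap161. Over the 250 bases before the start, GTTGCC was present on either strand in 16 of the 62 member promoters (25.8%, from 55 genes with an entry) and in 10.4% of all 32851 promoters. It was present in 5 of the 9 promoters of members higher in BNST than in both other regions, in 7 of 19 (36.8%) of members higher than dStr and in 9 of 43 (20.9%) of members not higher than dStr. A relaxed X-box, GTNNCC and GNAAC with any 3 bases between them, was present in 8 member promoters (12.9%) against 1.8% of all, in 0 of the 19 promoters of members higher in BNST than dStr and in 8 of 43 (18.6%) of the others. The form with any 2 bases between them was present in 10 member promoters (16.1%) against 1.32% of all. These were 3 of 19 (15.8%) of members higher in BNST than dStr, namely Enkur, Fam183b and Dynlrb2, and 7 of 43 (16.3%) of the others. GTTGCC alone and the shorter form were added after the promoters had been read, and GTTGCC can lie within a match of either X-box form. The forkhead motif TGTTTAC was found in 5 member promoters (8.06%) against 3.17% of all, among them Ak7 and Cfap43. These are matches of letters in a window and not measured binding sites.

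The values were linear intensities with array medians from 93.9 to 102. Every array had a lowest value of 15, which 2270 to 2698 probe sets per array shared and which is called the floor here. Of the 100 members, 24 stood at the floor on at least 1 array, and 1 probe set of Cfap69 stood there on all 9 and was not tested. The other 99 entered the test whatever their level, and 52 of them would have passed a filter at the 40th percentile. Each difference is on the scale log2(value + 16), which understates the change of low genes, and was tested with limma over 44627 probe sets with Benjamini-Hochberg adjustment at 0.05. BNST minus NAc and BNST minus dStr share the BNST arrays, so their values stand side by side and do not support each other.

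Some of the motile cilium genes were higher in BNST than in the striatal regions, and most members did not pass. Of the 99 members tested, 24 were higher and 1 lower in BNST than dStr (24.2% higher, where 3.23% of all probe sets were higher and 6.29% lower). Against NAc, 13 were higher and 0 lower in BNST (13.1% higher, where 0.41% of all probe sets were higher and 0.475% lower). In limma without adjustment, 31 were higher and 1 lower in BNST than NAc at p under 0.05. The share of all probe sets at that unadjusted threshold was not counted. These and the later unadjusted counts therefore have no background beside them. The difference was above 0 for 77 and below 0 for 22 members against dStr, and above 0 for 80 and below 0 for 19 against NAc. The median member difference was 0.24 against dStr and 0.24 against NAc, where the medians of all probe sets were -0.04 and -0.04. The 3 BNST arrays lay above the 3 dStr arrays for 39 members (39.4%, against 12.6% of all probe sets) and below them for 4 (4.04%, against 18.5%). They lay above the 3 NAc arrays for 32 members (32.3%, against 5.57% of all) and below them for 2 (2.02%, against 7.79%). In punched tissue, fewer cells of a type and less RNA per cell cannot be told apart.

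The calls were spread unevenly over the role groups. Of the genes listed singly, 8 of 8 were higher in BNST than dStr and 7 of 8 higher than NAc, with median differences of 2.16 and 2.17. This group was itself picked with results of these data known, so its count is not independent evidence. Radial spoke genes followed with 3 of 7 probe sets higher than in dStr and 2 higher than in NAc, then dynein heavy chains with 6 and 1 of 14. Of 43 Cfap probe sets, 7 were higher and 1 lower than in dStr, and 3 were higher than in NAc. No tektin, intermediate chain or Spag probe set passed limma's adjusted threshold in any comparison. Without adjustment, against NAc and dStr in turn, 2 and 2 tektin, 2 and 1 intermediate chain, 1 and 1 axonemal Spag and 0 and 1 other Spag probe sets were higher in BNST at p under 0.05, and 1 axonemal Spag probe set was lower than in dStr.

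**Figure D1:**
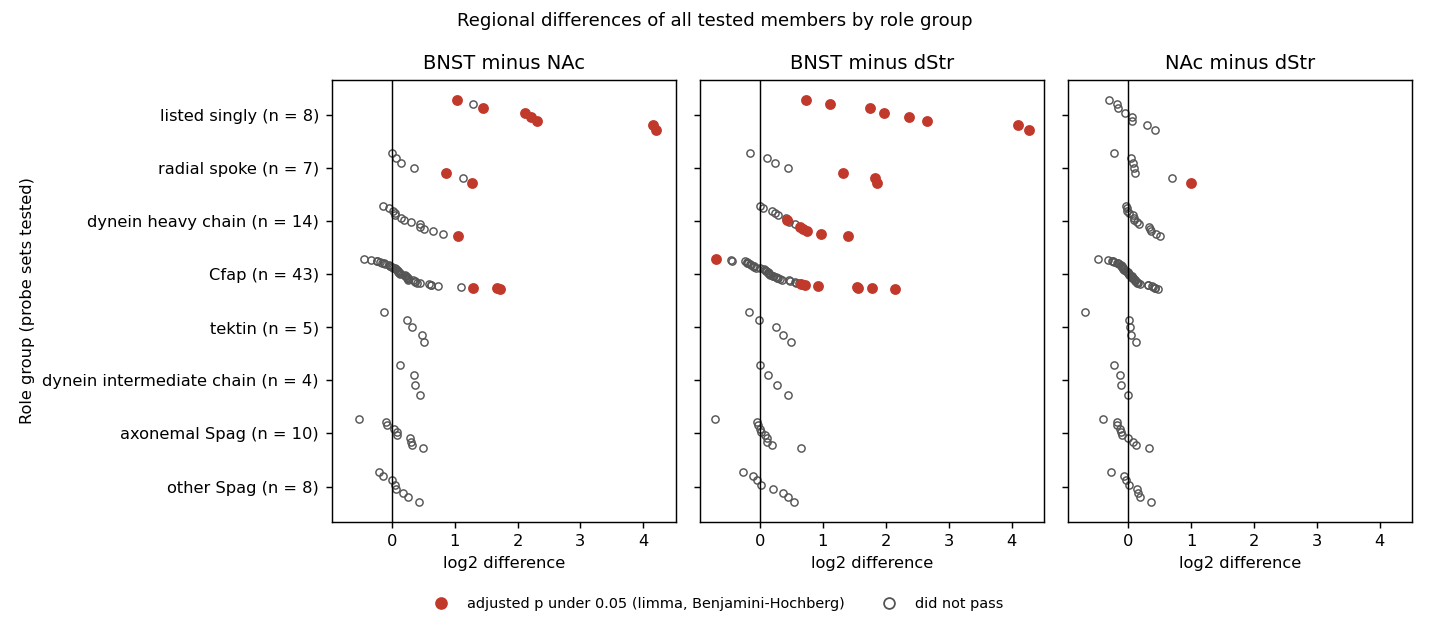
Each point is 1 tested member probe set, placed by its log2 difference in each comparison of regions and by role group; filled points had a limma adjusted p under 0.05. Points reach 4.20 in BNST minus NAc and 4.27 in BNST minus dStr and stay between -0.69 and 1.00 in NAc minus dStr.

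Foxj1, the gene of the master transcription factor of motile cilia, was higher in BNST than in both striatal regions. Its values were 86.5, 65 and 106 on BNST arrays 1 to 3, 43, 29.5 and 27.7 in NAc, and 46.2, 42.1 and 45.7 in dStr. No striatal array reached the lowest BNST array. The difference was 1.04 against NAc (SE 0.17, limma adjusted p = 0.0313) and 0.73 against dStr (SE 0.17, limma adjusted p = 0.0295). Both calls depended on single arrays: that against NAc ended without BNST 1, BNST 3, NAc 2, NAc 3 or any dStr array (adjusted p 0.0502 to 0.146), and that against dStr without BNST 1, BNST 3 or any dStr array (0.0571 to 0.116).

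Tmem212, which encodes a membrane protein and marks ciliated ependymal cells, had the largest difference of all members. It read 561, 371 and 936 in BNST, 19.3 on NAc array 1, and stood at the floor of 15 on the other NAc arrays and on all dStr arrays. The difference from NAc was 4.20 (SE 0.27, limma adjusted p = 0.00024). Against dStr it was at least 41.6-fold higher, the BNST mean of 623 ± 288 (SD, n = 3) over the floor, with a limma adjusted p of 0.000138. Ccdc153, a coiled-coil gene of the same cells, read 644, 379 and 1201 in BNST, 16, 26.3 and 25.8 in NAc, and 34.7, 24.4 and 15 in dStr. For Ccdc153 the difference was 4.15 against NAc (SE 0.36, limma adjusted p = 0.00174) and 4.10 against dStr (SE 0.36, adjusted p = 0.000371). Both genes were near or at the floor outside BNST, and BNST array 3 read highest and array 2 lowest for each.

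Enkur encodes enkurin, an adaptor protein that is part of the axoneme. It read 133, 112 and 197 in BNST, 15, 18.2 and 15.6 in NAc, and was at the floor on all 3 dStr arrays. The differences were 2.31 against NAc (SE 0.17, limma adjusted p = 0.000745) and 2.36 against dStr (SE 0.17, adjusted p = 0.000211), both limited by the floor. Fam183b, a small gene expressed in multiciliated cells, read 274, 162 and 291 in BNST, 25.1, 32.7 and 62.1 in NAc, and 18.9, 24.4 and 29.6 in dStr. Its differences were 2.22 against NAc (SE 0.27, limma adjusted p = 0.00867) and 2.65 against dStr (SE 0.27, adjusted p = 0.000677). Every BNST value of Fam183b exceeded the highest striatal value. The call against NAc ended without BNST 3 or NAc 2 (adjusted p 0.0585 to 0.0638).

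Dynlrb2, a roadblock-type light chain of dynein, and Ak7, an adenylate kinase of the axoneme, were also higher in BNST than in both regions. Dynlrb2 read 215, 131 and 309 in BNST, 27.9, 40 and 38.5 in NAc, and 42.4, 36.5 and 44.4 in dStr. Its difference was 2.12 against NAc (SE 0.25, limma adjusted p = 0.00759) and 1.97 against dStr (SE 0.25, adjusted p = 0.00184). Ak7 stood above the floor in every region: it read 469, 361 and 661 in BNST, 208, 152 and 146 in NAc, and 126, 135 and 138 in dStr. Its differences were 1.45 (SE 0.21, limma adjusted p = 0.0179) and 1.74 (SE 0.21, adjusted p = 0.00144). The Ak7 call against NAc ended without BNST 3, NAc 2 or any dStr array (adjusted p 0.053 to 0.0974).

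Tppp3, a tubulin polymerisation-promoting protein found in ciliated and other cells, passed against dStr and not against NAc. It read 541, 415 and 622 in BNST, 128, 199 and 318 in NAc, and 260, 214 and 221 in dStr. The difference was 1.11 against dStr (SE 0.27, limma adjusted p = 0.0345) and 1.29 against NAc (SE 0.27, limma adjusted p = 0.0725). The NAc arrays spread more widely than the dStr arrays, at 215 ± 95.8 against 232 ± 24.7 (SD, n = 3 each). The call against dStr ended without any 1 of the BNST or dStr arrays or NAc 2 (adjusted p 0.0556 to 0.141).

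**Figure D2:**
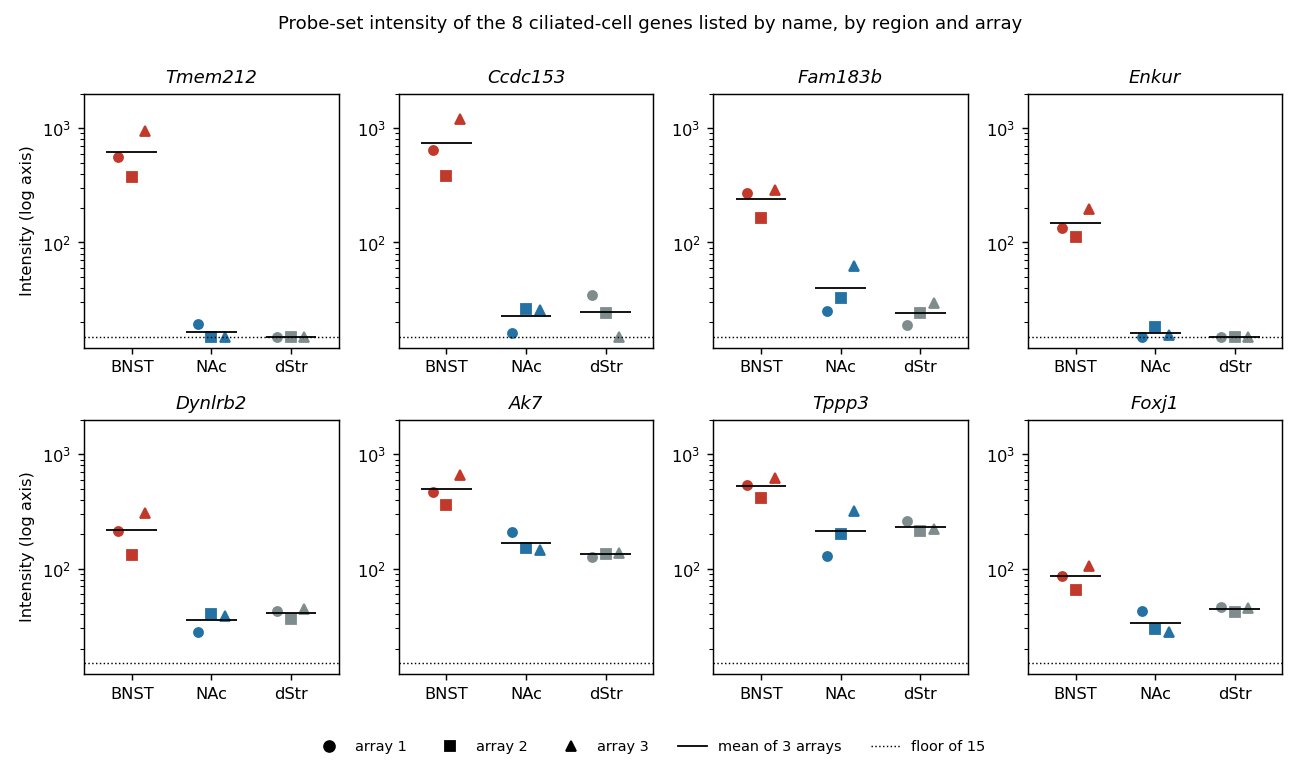
Intensity on a log axis of the 8 genes named singly in the rule, by region, with 1 point per array and a bar at the mean of 3 arrays; the dotted line is the floor of 15. For each gene the BNST arrays lie above all striatal arrays, and for Tmem212 and Enkur all dStr arrays lie at the floor.

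The only call between NAc and dStr was of a radial spoke gene. Rsph9, a spoke head protein gene, read 289, 219 and 297 in BNST, 122, 148 and 147 in NAc, and 60.4, 70 and 54.5 in dStr, so that the 3 regions did not overlap. The difference of BNST was 0.87 from NAc (SE 0.15, limma adjusted p = 0.0348) and 1.87 from dStr (SE 0.15, adjusted p = 0.000277). NAc differed from dStr by 1.00 (SE 0.15, limma adjusted p = 0.0184). Between NAc and dStr, 1 of 99 members was higher and 0 lower (1.01%, where 0.388% of all probe sets were higher and 0.515% lower), with 6 higher and 1 lower at an unadjusted limma p under 0.05. The 3 NAc arrays lay above the 3 dStr arrays for 13 members (13.1%, against 7.6% of all probe sets) and below them for 3 (3.03%, against 9.1%). The Rsph9 call between NAc and dStr ended without NAc 2, NAc 3 or any dStr array (adjusted p 0.0517 to 0.113), and that between BNST and NAc ended without any array other than BNST 2 (0.0538 to 0.177).

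Rsph4a, another spoke head gene, read 162, 115 and 148 in BNST, 33.4, 66.8 and 74.1 in NAc, and 29.8, 27.7 and 27.3 in dStr. The difference was 1.82 against dStr (SE 0.22, limma adjusted p = 0.00142) and 1.13 against NAc (adjusted p = 0.0548). NAc arrays again lay above all dStr arrays, but that difference of 0.70 did not pass (limma adjusted p = 0.229). Rsph1, also of the spoke head, read 195, 142 and 278 in BNST, 67.8, 67 and 83.2 in NAc, and 74.6, 50.1 and 87.7 in dStr. Its differences were 1.27 against NAc (SE 0.24, limma adjusted p = 0.047) and 1.32 against dStr (SE 0.24, adjusted p = 0.00894). The Rsph1 call against NAc ended without any array other than BNST 2 (adjusted p 0.0663 to 0.188). The spoke gene Rsph3a, with the highest mean of the group, read 249 to 375 in BNST, 235 to 400 in NAc and 208 to 498 in dStr, and these ranges overlapped. A second Rsph3a probe set gave 0.36 against NAc and 0.45 against dStr, without passing (limma adjusted p = 0.421 and 0.103). Its BNST arrays lay above all dStr arrays.

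Dynein heavy chains, the motors of the inner and outer arms, had positive differences from dStr for 14 of 14 probe sets, of which 6 passed, with a median of 0.44. Dnah2, an inner arm chain, read 78.5, 46.6 and 78.9 in BNST, 17.9, 33.6 and 21 in NAc, and 15.9, 15 and 15 in dStr. The differences were 1.06 against NAc (SE 0.19, limma adjusted p = 0.0443) and 1.40 against dStr (SE 0.19, adjusted p = 0.00274), the latter limited by the floor. The call against NAc ended without any array other than BNST 2 (adjusted p 0.0719 to 0.208). A second Dnah2 probe set gave 0.56 against dStr and did not pass (limma adjusted p = 0.231).

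Dnah7a, Dnah1, Dnah6, Dnah12 and Dnah11 passed against dStr and not against NAc, and no probe set of Dnah5, Dnah8, Dnah9 or Dnah17 passed. Dnah7a, an inner arm chain, read 105, 70.6 and 96.8 in BNST, 33.2, 46.5 and 53.8 in NAc, and 28.9, 40.7 and 46.3 in dStr, a difference of 0.96 (SE 0.19, limma adjusted p = 0.0134). Dnah1, also of the inner arms, read 206, 214 and 226 in BNST, 125, 158 and 113 in NAc, and 117, 124 and 124 in dStr, a difference of 0.75 (SE 0.13, adjusted p = 0.00793 in limma). Unlike the genes listed singly, Dnah1 read nearly alike on the 3 BNST arrays, at 215 ± 9.84 (SD, n = 3), and a second Dnah1 probe set gave 0.42 against dStr (limma adjusted p = 0.236). Dnah6 (0.68), Dnah12 (0.64) and Dnah11 (0.42), named after their values were seen, had limma adjusted p of 0.0114, 0.0404 and 0.0397 against dStr. These calls ended, for Dnah7a, without BNST 3 or dStr 1 (0.0618 to 0.0641) and, for Dnah6, without BNST 3 or dStr 3 (0.0513 to 0.0515). For Dnah12 they ended without BNST 2, BNST 3, NAc 2 or any dStr array (0.0601 to 0.157), and for Dnah11 without any BNST or dStr array or NAc 2 (0.0553 to 0.133). Dnah8, with the highest mean of the group, read 193 to 264 in BNST, 223 to 281 in NAc and 191 to 210 in dStr and did not pass.

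Among the cilia and flagella associated proteins, which the Cfap symbols group by place and not by one function, 3 genes were higher in BNST than in both regions. Cfap65, needed for the sperm flagellum, read 129, 93 and 186 in BNST, 31.5, 29.8 and 24.7 in NAc, and 15, 15 and 22.1 in dStr. Its differences were 1.72 against NAc (SE 0.21, limma adjusted p = 0.00867) and 2.15 against dStr (SE 0.21, adjusted p = 0.000557). Cfap161, a protein of the microtubule lumen, read 67.7, 70.1 and 118 in BNST, the floor on all NAc arrays, and 21.5, 15 and 16.6 in dStr. The differences were 1.68 against NAc (SE 0.18, limma adjusted p = 0.00475) and 1.56 against dStr (SE 0.18, adjusted p = 0.00118), both limited by the floor. Cfap54, a gene of the central pair apparatus, read 174, 128 and 231 in BNST, 47.9, 75.7 and 62.2 in NAc, and 39, 38.3 and 40.7 in dStr. Its differences were 1.30 (SE 0.20, limma adjusted p = 0.0224) and 1.77 (SE 0.20, adjusted p = 0.00105), while a second probe set of the gene gave 0.06 and 0.10. For all 3 genes the lowest BNST array stood above the highest striatal array. The calls against NAc ended for Cfap65 without NAc 2 (adjusted p = 0.0512 in limma) and for Cfap54 without BNST 3, NAc 1, NAc 2 or any dStr array (0.0626 to 0.0971).

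Further Cfap genes passed against dStr alone. Cfap43 read 89.8, 56.9 and 114 in BNST, 27.8, 35.7 and 28.2 in NAc, and 15, 15 and 26.6 in dStr, a difference of 1.54 (SE 0.22, limma adjusted p = 0.00287) against dStr and 1.11 (adjusted p = 0.0548) against NAc. The other Cfap43 probe sets gave -0.06 and 0.10 against dStr, so the gene's call rests on 1 of 3 probe sets. Cfap126, whose protein works in basal body placement, read 251, 161 and 250 in BNST, 119, 111 and 145 in NAc, and 98.4, 115 and 109 in dStr, a difference from dStr of 0.91 (SE 0.18, limma adjusted p = 0.0127). Cfap300 gave 0.72 (limma adjusted p = 0.0279) and Cfap299, named after its values were seen, 0.65 (adjusted p = 0.0315). These last calls depended on single arrays: Cfap126 ended without BNST 3, dStr 1 or dStr 3 (0.0527 to 0.0632), and Cfap300 (0.0531 to 0.109) and Cfap299 (0.0577 to 0.123) without BNST 1, BNST 3 or any dStr array.

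Cfap97 was the only member that passed the adjusted threshold as lower in BNST. One of its probe sets read 31.3, 27.1 and 19.5 in BNST, 34.1, 40.7 and 46.7 in NAc, and 48.1, 47.5 and 60 in dStr, so that BNST lay below every striatal array. The difference from dStr was -0.70 (SE 0.15, limma adjusted p = 0.019), and it ended without BNST 2, BNST 3, dStr 1 or dStr 3 (0.0569 to 0.081). The other Cfap97 probe sets gave -0.21 and -0.24 and did not pass. Cfap36, with the highest mean of the Cfap group, read 871 to 1261 in BNST, 896 to 1088 in NAc and 857 to 1179 in dStr, and these ranges overlapped.

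**Figure D3:**
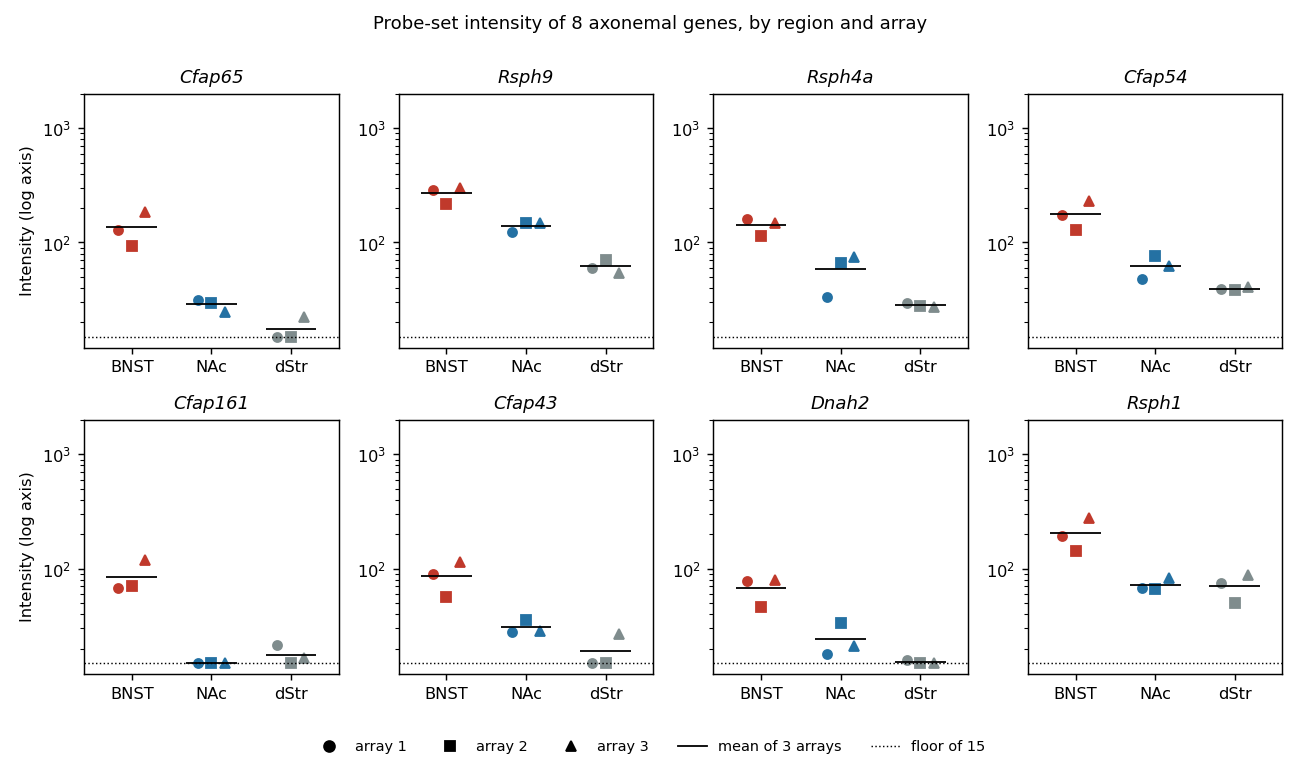
Intensity on a log axis of axonemal members that differed between BNST and dStr, by region, with 1 point per array and a bar at the mean of 3 arrays; the dotted line is the floor of 15. Rsph9 falls in 3 separate steps from BNST (219 to 297) to NAc (122 to 148) and dStr (54.5 to 70), whereas Cfap161 is at the floor on all NAc arrays.

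Tektins, intermediate chains and Spag genes did not pass, and their values were as follows. For tektins the smallest limma adjusted p was 0.194 against NAc and 0.0629 against dStr, both of Tekt4, with differences of 0.48 and 0.49. Tekt5 read 137, 84.1 and 80.3 in BNST, 42.5, 75.3 and 80.3 in NAc, and 125, 139 and 82.3 in dStr. Its BNST and dStr ranges overlapped. The NAc arrays lay below both, though the highest NAc value (80.327) nearly reached the lowest BNST value (80.331). The 3 BNST arrays lay above the 3 NAc arrays for 4 of 5 tektins (against 5.57% of all probe sets). They lay above the 3 dStr arrays for 2 (against 12.6%). One probe set of Dnaic2, an outer arm intermediate chain gene, read 18.9, 24.3 and 37 in BNST and stood at the floor on all 6 striatal arrays (limma adjusted p = 0.268 and 0.1). It was therefore above the floor in BNST on every array but only slightly.

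Spag genes of the central pair apparatus showed no common direction. Spag6l read 163, 153 and 195 in BNST, 124, 158 and 128 in NAc, and 181, 180 and 114 in dStr. A probe set of Spag16 was at the floor on all BNST arrays and read 33.9, 25.9 and 26.1 in NAc and 39.5, 54.1 and 17.2 in dStr, without passing (limma adjusted p = 0.457 and 0.0947). Spag9, a scaffold of stress kinase signalling and not of the axoneme, read 2132 to 2326 in BNST, 1899 to 2230 in NAc and 1754 to 2004 in dStr. The differences of this Spag9 probe set, 0.07 against NAc and 0.20 against dStr, did not pass. The other Spag9 probe sets gave 0.18 and -0.21 against NAc and 0.54 and -0.05 against dStr, and did not pass either. Of the 23 member genes with several probe sets, Cfap43, Cfap54, Dnah1, Dnah2 and Cfap97 had a call against dStr, each from 1 probe set, and the others had none.

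The members that were higher in BNST than dStr tended to share an order among the BNST arrays. Of these 24, array 3 read highest and array 2 lowest of the BNST arrays for 19 each (79.2%). Among the 1416 other probe sets higher in BNST than dStr, array 3 was highest for 44.2% and array 2 lowest for 44.3%. The median ratio of BNST array 3 to array 2 was 1.66 over the 24 members (range 0.89 to 3.17), 1.07 over the other probe sets higher in BNST and 1.03 over all 44937 probe sets that are not members. For array 1 to array 2 it was 1.35, 1.05 and 1.06. These are descriptions of 3 arrays, and the members are not independent of each other.

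**Figure D4:**
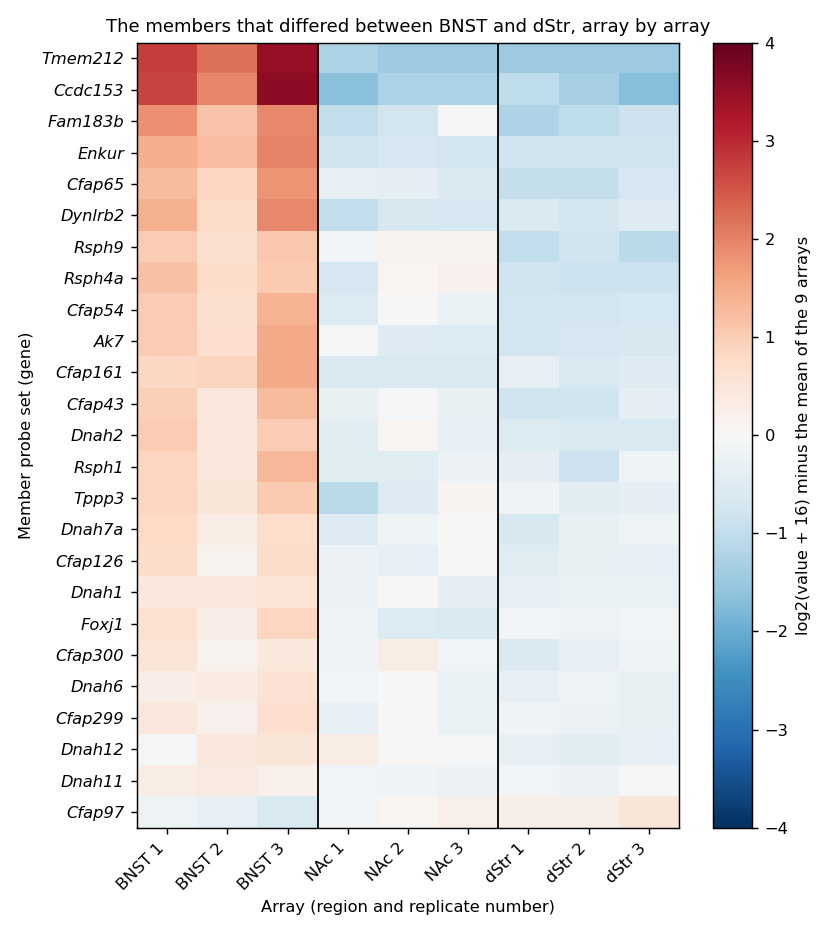
Colour gives log2(value + 16) minus the mean of the 9 arrays for the 24 members higher and the 1 lower in BNST than dStr, with arrays as columns. The BNST arrays lie above the dStr arrays in every row but that of Cfap97, where they lie below, and BNST array 2 reads lowest of the BNST arrays for 19 of the 24.

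Of 58 genes of the motile cilium outside the rule, each represented by 1 probe set, 12 were higher and 1 lower in BNST than dStr (where 3.88% and 6.84% of 18125 genes were), and 4 were higher and 0 lower than in NAc (where 0.524% and 0.623% were), with 20 higher and 1 lower at an unadjusted limma p under 0.05. Stoml3, a stomatin-like membrane protein gene, read 64.7, 38.5 and 52.7 in BNST, 17.5, 19.5 and 15.2 in NAc, and 16.4, 15 and 15 in dStr (differences 1.01 and 1.09, limma adjusted p = 0.0189 and 0.00242). Drc3, of the dynein regulatory complex, averaged 161 ± 39.8 in BNST, 61.4 ± 13 in NAc and 77.8 ± 9.53 in dStr (SD, n = 3 each; differences 1.19 and 0.90, limma adjusted p = 0.023 and 0.0157). Ccdc40, needed to place the inner arms and regulatory complex, was at the floor on all dStr arrays and at least 3.09-fold higher in BNST (limma adjusted p = 0.00581). Iqcg, also of the regulatory complex, was the one that was lower in BNST than dStr (-0.60, limma adjusted p = 0.028). Of the 24 calls of genes outside the rule against NAc, over all lists given here, 6 held without any 1 array, and 31 of 58 did against dStr. The Drc3, Stoml3 and Ccdc40 calls against NAc were among those that ended (adjusted p 0.0514 to 0.185 in limma, without BNST 3, NAc 1, NAc 2 or any dStr array, and for Ccdc40 also without BNST 1 or NAc 3), as were Drc3 (0.051 to 0.0598, BNST 3 or any dStr array) and Iqcg (0.0923 to 0.109, BNST 2, BNST 3, dStr 1 or dStr 3) against dStr.

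Among 14 measured regulators of multiciliated cell formation, Myb alone was higher in BNST, at 71.1 ± 26.3 against 23.7 ± 4.69 in NAc and 19.9 ± 4.57 in dStr (SD, n = 3 each; limma adjusted p = 0.0474 and 0.00627). The Myb call against NAc ended without any 1 of the 9 arrays (0.0578 to 0.186). The X-box factor genes Rfx3 (-0.61 and -0.27) and Rfx2 (-0.00 and -0.18) did not pass. Of 39 intraflagellar transport and BBSome genes, 3 were higher and 1 lower in BNST than dStr and 0 differed from NAc (2 higher and 1 lower at an unadjusted limma p under 0.05). Against dStr that is close to the shares over all genes, 3.88% higher and 6.84% lower. The genes were Ift81 (0.83), Ift22 (0.69), Dync2h1 (0.58) and, lower, Mkks (-1.07), with limma adjusted p of 0.0109, 0.0191, 0.0409 and 0.00851. The Ift81 call ended without BNST 3 (0.0564), Ift22 without BNST 2, BNST 3 or any dStr array (0.056 to 0.0728) and Dync2h1 without any BNST or dStr array (0.0734 to 0.126). Of 7 neuronal primary cilium genes, Npy2r was higher (2.08) and Adcy3, the adenylyl cyclase of neuronal cilia, lower (-0.43) in BNST than dStr (limma adjusted p = 0.0257 and 0.0304). Both ended without some array (Npy2r any BNST or dStr array, 0.0606 to 0.103; Adcy3 BNST 2, BNST 3 or any dStr array, 0.057 to 0.105).

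Of 16 ependymal markers that are not parts of the axoneme, 7 were higher and 0 lower in BNST than dStr, and 4 were higher and 0 lower than in NAc. Over all genes 3.88% were higher and 6.84% lower in BNST than dStr, and 0.524% were higher and 0.623% lower than in NAc. These shares serve the marker lists that follow as well. Their summed level was 9779 to 12272 in BNST, 6425 to 8150 in NAc and 5997 to 6926 in dStr, and none was at the floor throughout. Cd24a, a surface protein of ependymal cells, read 530, 402 and 716 in BNST, 98, 128 and 140 in NAc, and 83.8, 84.5 and 76.7 in dStr. Its differences were 2.01 and 2.50 (limma adjusted p = 0.00311 and 0.000288), with array 3 again highest and array 2 lowest in BNST. Mia, a secreted protein gene, averaged 316 ± 29.7 in BNST, 92 ± 8.48 in NAc and 119 ± 25.9 in dStr (SD, n = 3 each; limma adjusted p = 0.00297 and 0.00144). The other calls were of Fam216b, Nnat, Sox2, Sox9 and Tm4sf1 against dStr and of Fam216b and Sox9 against NAc. Against NAc, Sox9 ended without any 1 of the 9 arrays (limma adjusted p 0.0579 to 0.194). Fam216b ended there without BNST 2, BNST 3, NAc 1, NAc 2 or any dStr array (0.0536 to 0.133). Against dStr, Sox9 ended without BNST 1, BNST 3, NAc 2 or any dStr array (0.0514 to 0.138). Vim and S100b, which other glia also express, did not pass.

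Other cell types that a punch could hold were followed by their markers. For choroid plexus, 3 of 18 markers were higher in BNST than dStr and 2 higher than NAc. The summed level was 2648 to 3414 in BNST, 2386 to 2422 in NAc and 2258 to 2631 in dStr, with no marker at the floor on all arrays. Otx2 and Sostdc1 passed in both comparisons and Calml4 against dStr alone. Calml4 is also counted among the other motile cilium genes above. The Sostdc1 call against NAc ended without any 1 of the 9 arrays (limma adjusted p 0.0602 to 0.178). Otx2, a homeobox factor of choroid plexus, read 372, 209 and 250 in BNST and was at the floor on all striatal arrays, at least 18.5-fold higher (limma adjusted p = 0.000156 and 9.92e-05). The transport protein gene Ttr, which choroid plexus expresses very strongly, read 621, 277 and 340 in BNST, 292, 276 and 304 in NAc, and 271, 308 and 302 in dStr, and did not pass. Of the BNST arrays, Otx2 and Ttr were highest on array 1, and Calml4 (53.9, 47.4 and 134) was highest on array 3. Of the 24 members higher in BNST than dStr, 4 were highest on array 1 and 19 on array 3. The part of choroid plexus tissue in the members' differences was not tested.

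Of 12 astrocyte markers, 4 were higher in BNST than dStr and 2 higher than NAc, with summed levels of 17012 to 18811, 13483 to 14987 and 11911 to 12812 in BNST, NAc and dStr. Aqp4 is counted among both the astrocyte and the ependymal markers, so these lists are not separate. Gfap, the intermediate filament of astrocytes, averaged 161 ± 52.8 in BNST, 35.6 ± 4.16 in NAc and 34.4 ± 8.63 in dStr (SD, n = 3 each; limma adjusted p = 0.0122 and 0.00188), and its call against NAc ended without BNST 2, BNST 3 or NAc 2 (0.0574 to 0.0657). Of 15 markers of subventricular zone progenitors and neuroblasts, 4 were higher and 1 lower in BNST than dStr, and 1 was higher than in NAc; the summed levels were 2851 to 4000, 2431 to 4152 and 2769 to 2972. Of 9 tanycyte markers, 1 was lower in each BNST comparison and 0 higher, with summed levels of 2875 to 3988, 6603 to 7500 and 5922 to 6597 in BNST, NAc and dStr. Against dStr, 1 of 9 is close to the 6.84% of all genes that were lower. The lower gene was Crym against NAc and Ppp1r1b against dStr. The Crym call ended without BNST 3 or any NAc or dStr array (limma adjusted p 0.0575 to 0.155). Ppp1r1b is also counted among the medium spiny neuron genes below, so this count and sum are not of tanycytes alone. The part of these cell types in the members' differences was not tested.

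For oligodendrocytes 0 of 10 markers passed limma's threshold in any comparison, nor did any at an unadjusted p under 0.05 (0), with summed levels of 18101 to 19987 in BNST, 14799 to 21414 in NAc and 17957 to 20495 in dStr. Of 10 microglial markers 4, and of 10 endothelial and pericyte markers 1, were lower in BNST than dStr. Over all genes 6.84% were lower, which is close to 1 of 10. The call of Ctss ended without any array other than BNST 1 (limma adjusted p 0.051 to 0.14). That of Tyrobp ended without BNST 2, BNST 3, NAc 3 or any dStr array (0.0501 to 0.145). P2ry12 ended without BNST 2, BNST 3, dStr 2 or dStr 3 (0.0642 to 0.0778), and the pericyte marker Rgs5 without BNST 3 or dStr 3 (0.0503 to 0.0575). Neuronal markers were counted as well, on lists chosen with earlier results of these data known, so they are not an independent check of the regional labels. Here 8 of 8 medium spiny neuron genes were lower in BNST than dStr and 5 lower than NAc, with summed levels of 3103 to 6665, 12608 to 18612 and 20806 to 22930. Of 10 genes of the septal and BNST region, 7 were higher in BNST than dStr and 4 higher than NAc, with summed levels of 8167 to 9523, 1630 to 4414 and 1037 to 1402. NAc minus dStr called 0 of the ependymal, choroid plexus and astrocyte markers in limma, with 3, 1 and 3 higher and 1, 2 and 0 lower at an unadjusted p under 0.05.

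**Figure D5:**
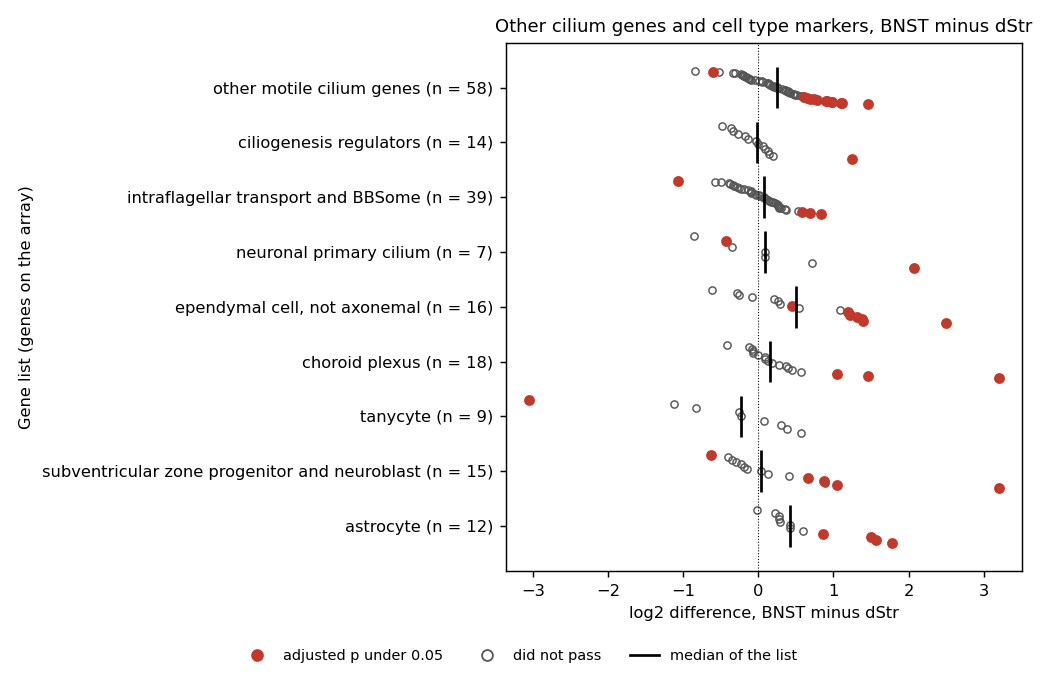
Each point is 1 gene of a list of other cilium genes or cell type markers, placed by its log2 difference of BNST minus dStr, with filled points for a limma adjusted p under 0.05 and a bar at the list's median. The medians are 0.50 for ependymal markers, 0.43 for astrocyte markers and 0.24 for other motile cilium genes.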

How the data were processed

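Total RNA of 9 punched samples, 3 per region, was extracted with Stat-60, amplified in repeated rounds and hybridised to Mouse430_2 arrays, per the labels' protocols. The authors deposited linear intensity values for 45037 probe sets; the sources used here do not give the summarisation software or the scaling. Low values share a floor, so a probe set there has only a bound. Gene symbols come from the platform's annotation, in which 34945 probe sets have 1 symbol, 932 several and 9160 none; all 100 members matched a RefSeq gene by Entrez identifier.

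Values were not renormalised. Each was taken as log2(value + 16) and fitted in limma 3.58.1 (R 4.3.3) with 1 mean per region over all 9 arrays (6 residual degrees of freedom), without a filter on level other than leaving out 410 probe sets at the floor on all arrays. Tests were two-sided. Where all arrays of a region stood at the floor, a fold is the mean of the brighter region over the floor, as a lower bound. Values carry SD over 3 arrays, and this number limits their precision. Different probe sets of a gene were kept apart; a gene of a list was represented by its probe set with the highest mean.

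The members, lists and tests were chosen with earlier results of these data known. Named in full were the genes listed singly, up to 12 further members per comparison and direction with the largest difference among those that passed, and the brightest member of each role group; list genes were named among the up to 4 with the largest difference that passed, and others were added after their values were seen. Alternatives were other scalings, filters, pseudocounts and test settings, a replicate block, 1 probe set per gene, and each array left out in turn. The fit was tested on simulated data.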

Additional observations from a re-analysis of the deposited data

How the results depend on the processing

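No call of a member or of a list gene changed direction under the alternatives run. Against NAc 2 of the 13 member calls held in every alternative that tested their probe set, and against dStr 15 of 25. The filters on level and the use of 1 probe set per gene left some of these probe sets untested. The number of members called against NAc, 13, ranged from 5 to 14 with 1 array left out, fewest without NAc 2 (5) and BNST 3 (6), then 7 without each dStr array, and 2 remained with the BNST and NAc arrays fitted alone (Tmem212 and Enkur). Against dStr, 25 became 15 to 26 with 1 array left out, 15 without BNST 3, 16 without dStr 1; it was 16 and 12 with filters at the 40th and 60th percentile, which left fewer members to test, and 15 when a log2 difference of at least 1 was asked for. The single call between NAc and dStr became 0 to 2 with 1 array left out, 0 with both regions fitted alone, 0 with the minimum of 1, and 2 without BNST 1 and NAc 1 together, an alternative chosen after seeing the data. Other scalings moved the median of all probe sets by at most 0.06.

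With the replicate number as a block, 8 members passed against NAc, 19 against dStr and 0 between NAc and dStr. The correlation of same-numbered arrays' deviations ran from -0.46 to 0.21. Not every pair exceeded 0.1, and not every array correlated best with its own number. With so few arrays per region, these correlations cannot decide whether same-numbered arrays came from the same mice, which the labels do not say. Values at the floor limit what low members can show.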
